A study of Mus musculus with 24 samples.

Results

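*Ifng*, the gene of interferon gamma, was followed as a single gene of 35492 gene symbols in 24 mouse RNA-seq libraries. It was found by its symbol, which stands once in the table of every library. Naive CD4 T cells (CD4+ CD62L+) of C57BL/6 mice were activated by antibodies to CD3 and CD28, transfected with cGAMP or with a control dinucleotide and then polarized for 16 or 48 h. TH1 medium contained IL-12 and anti-IL-4, and TH9 medium contained TGF-β, IL-4 and an antibody to IFN-γ itself. This gave 8 labels, each with 3 libraries: TH1 and TH9 cells, 16h and 48h, control and cGAMP.

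Interferon gamma is the signature cytokine of TH1 cells. IL-12 and T-cell receptor signals switch the gene on through STAT4 and the T-box factor T-bet (*Tbx21*), IL-18 adds to this, and GATA3, which IL-4 induces, opposes it. The secreted cytokine binds a receptor of 2 kinds of chain (*Ifngr1* and *Ifngr2*) that signals through JAK1 and JAK2 and in the end induces guanylate-binding proteins, immunity-related GTPases and *Irf1*. cGAMP is the cyclic dinucleotide that activates STING, a sensor best known for inducing type I interferon.

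*Ifng* (ENSMUSG00000055170.4) lies on chromosome 10 at 118441046 to 118445892 of GRCm38, on the plus strand, in the GENCODE annotation at hand. Its coding transcript, *Ifng-201*, has exons of 220, 66, 183 and 739 bases, and a second transcript retains an intron. The region right before the transcript start is shown because part of the control by the factors whose genes are followed below is known to act there. It is the 250 bases at chr10:118440796-118441045, plus strand, GRCm38.p6, from RefSeq, with motif matches in capitals.

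*Ifng* promoter: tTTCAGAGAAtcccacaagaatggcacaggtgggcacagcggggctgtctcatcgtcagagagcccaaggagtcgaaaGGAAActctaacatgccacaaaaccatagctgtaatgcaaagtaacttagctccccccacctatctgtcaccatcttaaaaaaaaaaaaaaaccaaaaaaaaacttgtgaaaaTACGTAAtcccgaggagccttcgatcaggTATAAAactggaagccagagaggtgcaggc

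The matches were, from the 5′ end, a STAT motif (TTCNNNGAA) at the second base of the window, an NFAT core (GGAAA) 172 bases before the start, a CREB and ATF motif (TACGTAA) at 59 and a TATA box (TATAAA) at 30, each counted to its first base. Both strands were searched, and the 4 matches did not overlap. Among 27025 windows of the same length before gene starts, 7.18% held the STAT motif, 55.6% the NFAT core, 0.429% the CREB and ATF motif and 13% the TATA box. A T-box motif (GTGTGA, 12.2% of windows) and a GATA motif (AGATAA, 10.3%) had no match in these letters. The matches describe the sequence and are not bound sites.

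The deposited labels have to be read with care, since genes that define the subsets did not follow them. *Il9*, the TH9 cytokine, was higher than *Tbx21* in libraries of every label, and *Ifng* split the libraries the same way: 8 of the 12 TH1 libraries and 4 of the 12 TH9 libraries had more *Ifng* than *Il9*. In all 24 libraries, the call by *Ifng* against *Il9* was the call by *Tbx21* against *Il9*. T-cell markers were plain: *Cd4*, *Cd3e* and *Trac* together held 105 to 1002 TPM (transcript abundance, normalized for length and for the library's total), and the sums of 2 CD8 T-cell markers (1.13 to 7.83), 3 B-cell markers (0.190 to 7.04) and 3 myeloid markers (0.0798 to 4.24) were low. All libraries are named below by their deposited labels, none was moved or left out, and since the doubt covers every label no comparison could be made without the doubted libraries.

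*Ifng* ranged from 0 to 434 TPM over the 24 libraries, with a median of 5.97. It was listed at 0 in 2 libraries, reached 1 TPM in 14 and exceeded 100 TPM in 3. From 278 to 17743 symbols stood above it. On the log2(TPM + 1) scale, the widest gap between neighbouring libraries was 2.36, between 1.28 and 10.7 TPM, and the next widest was 1.08. On either side of that gap stood 12 libraries, and all 8 labels had libraries on both sides of it.

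In the TH1 libraries at 16h, *Ifng* was at 28.6, 43.3 and 0.566 TPM with control and at 0.726, 34.5 and 434 TPM with cGAMP (replicates 1, 2 and 3). The highest library of the series carried the cGAMP label, but 1 library of each treatment stood under 1 TPM and the groups overlapped. In the TH1 libraries at 48h, it was at 29.5, 254 and 0 TPM with control and at 0.763, 13.8 and 26.4 TPM with cGAMP. Here the highest value carried the control label, and the lowest did too.

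In the TH9 libraries at 16h, *Ifng* was at 0.709, 1.11 and 40.9 TPM with control and at 93.0, 1.28 and 0.507 TPM with cGAMP. At 48h, the TH9 libraries held 0.640, 0.106 and 10.7 TPM with control and 152, 0.239 and 0 TPM with cGAMP. In each of the 4 TH9 groups a single library was above 10 TPM, against 2 of 3 in each TH1 group.

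**Figure D1:**
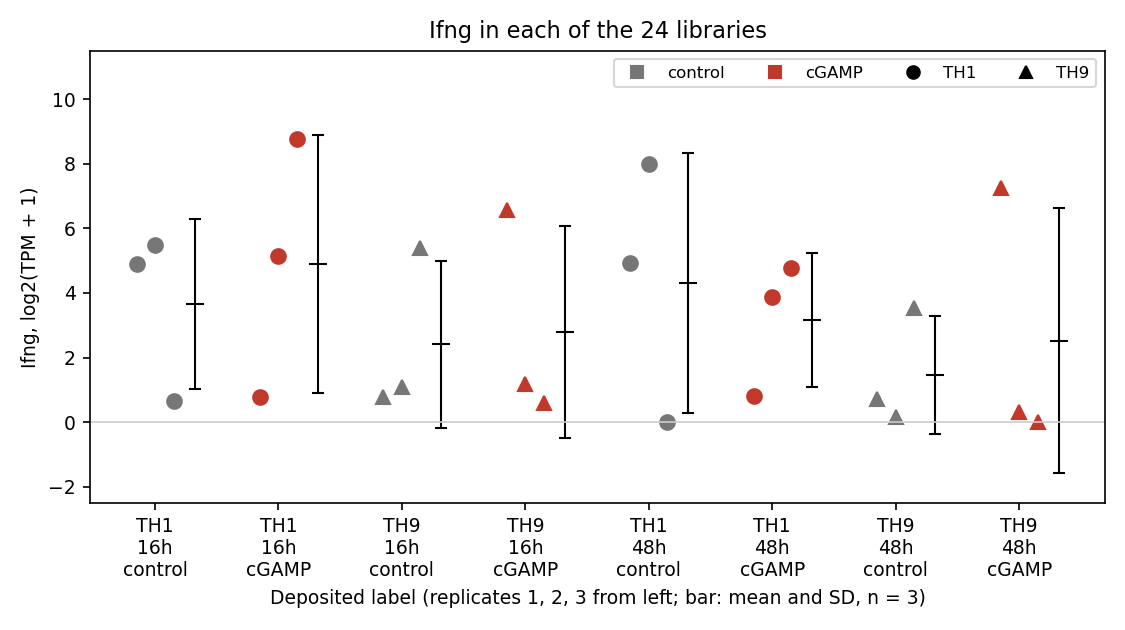
*Ifng* in each library as log2(TPM + 1), by deposited label. Circles are TH1 and triangles TH9, grey is control and red cGAMP, and the bars give the mean and SD (n = 3). Every label holds at least 1 library above 3 and at least 1 below 2 on this scale.

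Ordered by their means on that scale, the labels ran from TH1 16h cGAMP (4.90 ± 4.0, SD, n = 3) through TH1 48h control (4.31 ± 4.03), TH1 16h control (3.67 ± 2.63), TH1 48h cGAMP (3.16 ± 2.08), TH9 16h cGAMP (2.78 ± 3.28), TH9 48h cGAMP (2.52 ± 4.11) and TH9 16h control (2.41 ± 2.58) to TH9 48h control (1.47 ± 1.82). The TH1 labels thus came before the TH9 labels, yet the largest step between neighbours was 0.94, less than the smallest of these SDs. The ranges of all 28 pairs of labels overlapped. In bulk RNA, fewer cells that transcribe *Ifng* and less *Ifng* RNA per cell cannot be told apart.

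The spread of *Ifng* inside the labels was large next to that of most genes. Each label held both libraries with more *Tbx21* than *Il9* and libraries with more *Il9*, so this spread spans libraries that differ in subset markers. The SD of *Ifng* within labels was 3.18 on the log2 scale, against 0.60 for the median gene. Only 11 of 15720 genes tested, *Ifng* included, were as variable. Of the gene's sum of squares, 13.7% lay between the labels, against 53.5% for the median gene.

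Libraries labelled cGAMP and control were compared within each labelled subset and time in 1 limma fit of all 24 libraries. Because subset markers did not follow the labels, these comparisons cannot show whether cGAMP changed *Ifng* in the cells. The authors reported a marked rise of *Ifng* with cGAMP in TH1 cells. The log2 fold change of cGAMP over control was 1.23 at TH1 16h (SE 2.21, 95% interval -3.35 to 5.81, adjusted p = 0.919) and -1.15 at TH1 48h (interval -5.73 to 3.43, adjusted p = 0.980). In the TH9 libraries it was 0.36 at 16h (interval -4.22 to 4.95, adjusted p = 0.995) and 1.06 at 48h (interval -3.53 to 5.64, adjusted p = 0.809). All 4 estimates were smaller than their standard error of 2.21. The test called 0.00636% of all genes at TH1 16h, a single gene, and 0% in each of the other 3 strata. At an unadjusted p under 0.05 stood 1282 genes in TH1 cells at 16h and 673 at 48h, and in TH9 cells 1316 and 1557.

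Averaged over subsets and times, the cGAMP libraries were 0.38 above control (limma, interval -1.91 to 2.67, adjusted p = 1.00). An exact permutation of the treatment labels within subset and time, two-sided over 160000 regroupings, gave p = 0.754. Medians were 5.89 TPM over the 12 control libraries and 7.53 TPM over the 12 cGAMP libraries, and 6 of 12 in each treatment were above 10 TPM. The effect of cGAMP in TH1 less that in TH9 was -0.67 (interval -5.25 to 3.91, adjusted p = 0.984). No gene was called in either comparison (0%), with 323 and 367 genes at an unadjusted p under 0.05. The intervals are wide enough to hold a change of several-fold in either direction. They compare labels that are in doubt, so the lack of a call does not show that cGAMP left *Ifng* unchanged.

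*Ifng* is the defining cytokine of TH1 cells, so the subset comparison checks the labels as well as the gene. TH1 was above TH9 by 1.71 on average (limma, SE 1.11, interval -0.58 to 4.0, adjusted p = 1.00), with medians of 27.5 and 0.908 TPM over 12 libraries each. The exact permutation test within time and treatment gave p = 0.170. Of the libraries at 10 TPM or more, 8 were labelled TH1 and 4 TH9, and those 4 listed *Il9* at 0 TPM. The labels did not pass this check: both subsets held libraries with high and with low *Ifng*. The difference of 1.71 is thus one between labels, not between cells known to be TH1 and TH9. By stratum the difference was 1.25 at 16h control, 2.12 at 16h cGAMP, 2.84 at 48h control and 0.64 at 48h cGAMP, each with an SE of 2.21 and adjusted p from 0.688 to 0.971. Of all genes, 0.0191% were called at 16h cGAMP (3 genes) and 0% in the other 3 strata and on average, with 344 genes on average at an unadjusted p under 0.05.

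Between the times, *Ifng* was 0.58 lower at 48h on average (log2 difference -0.58, interval -2.87 to 1.72, limma adjusted p = 0.659), and the exact permutation test within subset and treatment gave p = 0.637. The median gene was 0.81 lower, more than *Ifng*, and 64.9% of all genes were called. Under upper-quartile scaling the difference turned to 0.10 and 282 genes were called in place of 10198. The 20 most abundant symbols held 48.5% to 89.7% of TPM in libraries labelled 48h and 14.9% to 69.3% in those labelled 16h. Since subset markers did not follow the labels, the time labels are in doubt too, and all differences here are between labels. Within groups, the log2 difference was 0.64 in TH1 control, -1.74 in TH1 cGAMP, -0.94 in TH9 control and -0.25 in TH9 cGAMP (SE 2.21 each, adjusted p from 0.582 to 0.963), where 10.1%, 0%, 60.7% and 11.2% of genes were called.

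**Figure D2:**
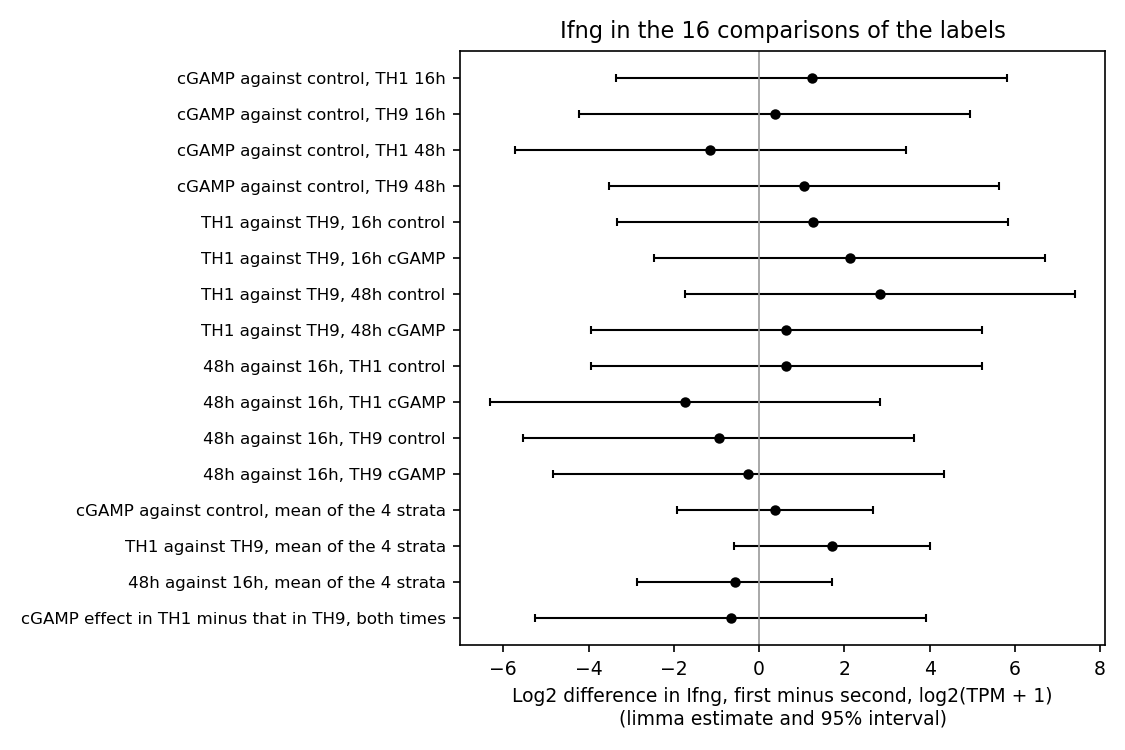
Log2 difference in *Ifng* (first group minus second, on the log2(TPM + 1) scale) in the 16 comparisons of the labels, with limma's 95% interval. All 16 intervals include 0, and 12 of the 16 rest on 3 libraries against 3.

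Leaving out single libraries showed how far each estimate rested on them. The mean cGAMP effect went from -0.22 without TH9 48h cGAMP replicate 1 to 0.89, and the mean TH1 against TH9 difference stayed between 1.23 and 2.31. At TH1 16h the cGAMP effect ran from -0.70 without TH1 16h cGAMP replicate 3 to 3.29. None of the 168 values so obtained was called.

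Library composition varied as well. *Gm10800*, a predicted gene, took 0.0933% to 39.9% of a library's TPM, and *Lars2*, a mitochondrial leucyl-tRNA synthetase, 0.333% to 33.8%. Spearman's rho with *Ifng* over the 24 libraries was -0.37 for the first, 0.13 for the second and 0.20 for the number of symbols at 1 TPM or more. As a ratio to *Cd4* of the same library, in which a shared scaling cancels, *Ifng* was 0.141 to 4.19 times *Cd4* in the libraries at 10 TPM or more and at most 0.0127 times in the others. The part of composition in the differences between labels was not tested.

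Since *Ifng* differed more between libraries than between labels, its pattern was described across the 24 libraries. The rank correlations that follow are descriptions over 24 libraries that share labels and a scaling to the same total. Over all other genes tested the median rho was 0.21, and it was -0.01 under upper-quartile scaling, so both scalings are given for the lists. Of those genes, 83.9% had a positive rho (48% under upper-quartile scaling) and 3.56% a rho of 0.5 or more, and the counts of list members below are to be read against these shares. The libraries fall into 12 on each side of the gap, and a rho over all 24 can come from that gap alone, so the medians of the 10 plotted lists are also given within the upper and the lower 12, where that of all other genes was 0.22 and 0.42. *Tbx21*, which encodes T-bet, was at 7.0 TPM or more wherever *Ifng* was at 10 TPM or more and at most 1.42 TPM elsewhere (rho 0.84, 0.44 within the upper 12 libraries and 0.25 within the lower 12). *Il9* ran the other way, at most 1.23 TPM in the libraries with *Ifng* at 10 TPM or more and at least 6.71 TPM in the others (rho -0.76).

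**Figure D3:**
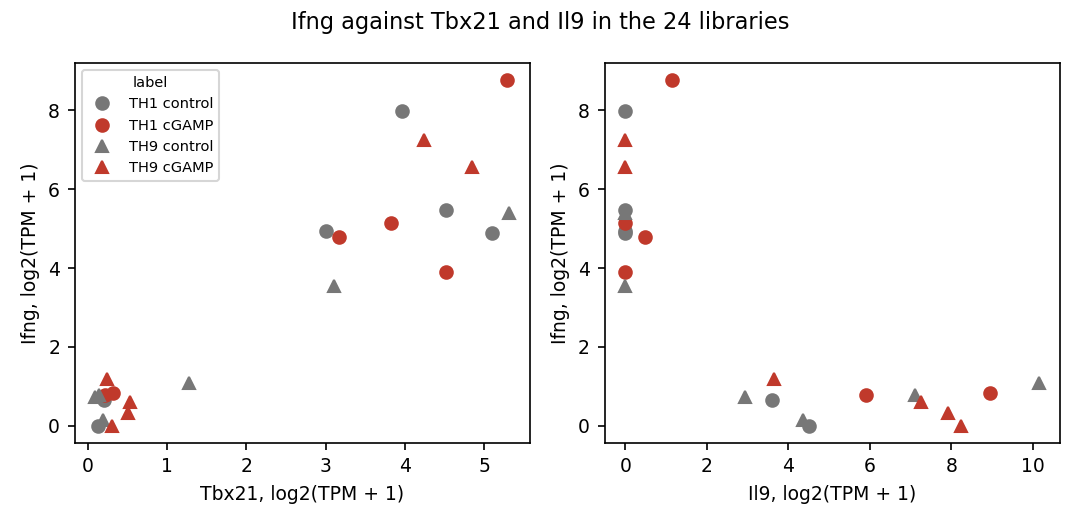
*Ifng* against *Tbx21* (left) and *Il9* (right) in the 24 libraries, all as log2(TPM + 1), with symbols for the deposited subset and colours for the treatment. Both panels show 12 libraries with high and 12 with low *Ifng*, and symbols of both subsets stand in each set.

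The genes most like *Ifng* were *Ly6c1* (rho 0.89) and *Ly6a* (0.88), surface proteins of the Ly6 family carried by activated and memory T cells. *Ly6c1* had 53.0, 63.4 and 1.91 TPM in TH1 16h control, where *Ifng* had 28.6, 43.3 and 0.566, and 4.91, 57.3 and 311 TPM in TH1 16h cGAMP, where *Ifng* had 0.726, 34.5 and 434. Among the 12 libraries with the higher *Ifng*, rho was 0.97 for *Ly6c1* and 0.98 for *Ly6a*, but in the lower 12 it was 0.19 and 0.13. *Ly6c1* reached 33.5 TPM in TH9 16h cGAMP replicate 3, a library with 0.507 TPM of *Ifng*, so the 2 genes did not always go together.

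Next came *Gbp2*, *Gbp5* and *Gbp3*, guanylate-binding proteins (rho 0.86, 0.86 and 0.84), *Gvin1*, a large interferon-inducible GTPase (0.84), the membrane protein gene *Ms4a4c* (0.86), *Ly6i* (0.86), *Zbtb32*, a zinc-finger repressor (0.84), and *Tbx21*. In the upper 12 libraries *Zbtb32* kept the order of *Ifng* (rho 0.96), whereas *Gbp2* did so less (0.41). *Zbtb32* was also transcribed where *Ifng* was near 0, with 17.9 TPM in TH9 16h control replicate 2. At the other end, in the TPM as deposited, stood *Id1*, an inhibitor of basic helix-loop-helix factors (rho -0.77), the myosin *Myo6* (-0.76), *Il9* (-0.76), *Il12a*, a subunit of IL-12 (-0.73), and *Cd79b*, a B-cell receptor component (-0.72). *Cd79b* was at 4.38 TPM or less. Under upper-quartile scaling the order at this end differed, with *Id1* and *Cd79b* both at -0.88 and *Il9* at -0.77.

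**Figure D4:**
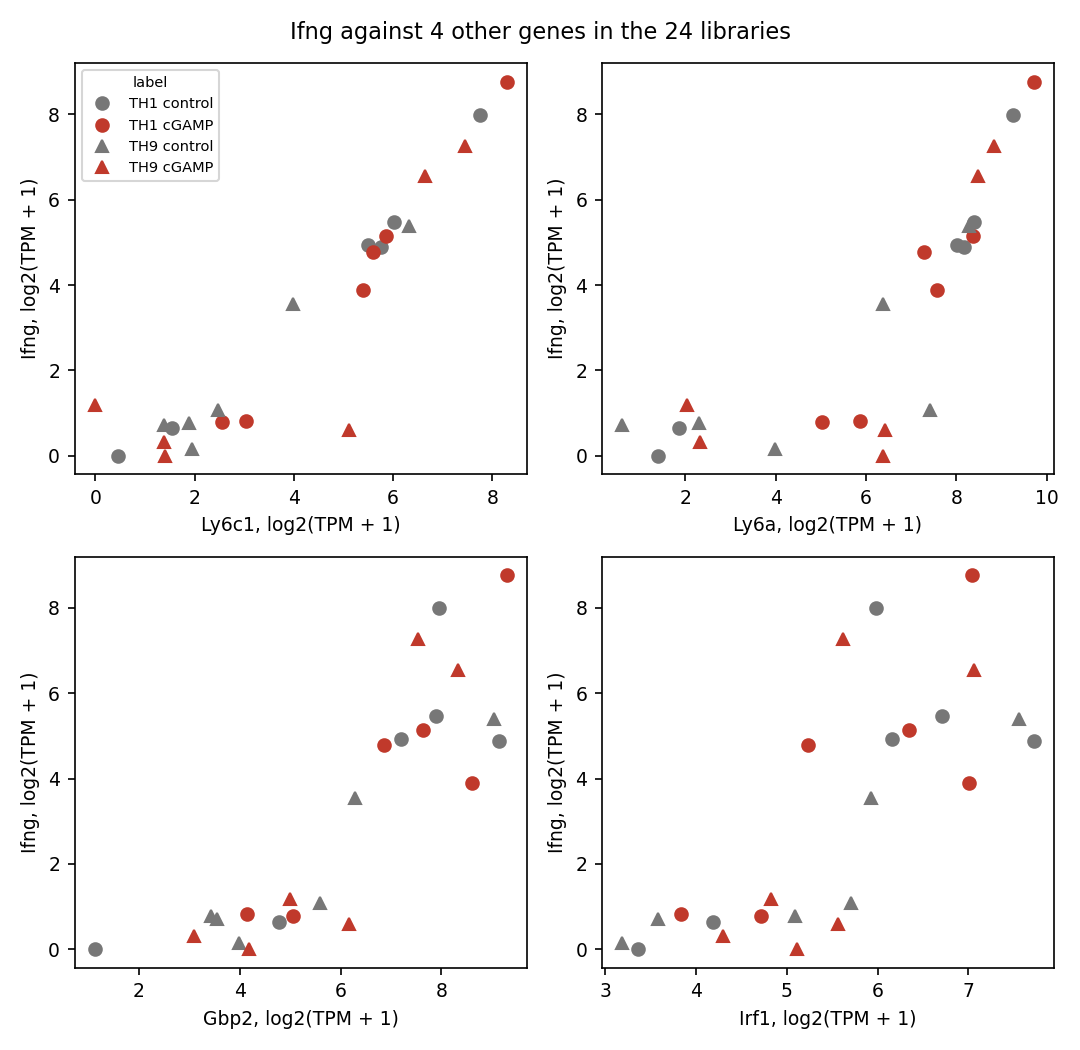
*Ifng* against *Ly6c1*, *Ly6a*, *Gbp2* and *Irf1* in the 24 libraries, all as log2(TPM + 1), with symbols and colours by deposited label. *Ly6c1* and *Ly6a* rise with *Ifng* among the 12 higher libraries (rho 0.97 and 0.98), and *Irf1* spreads more (rho 0.79 over 24).

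The receptors of the inducing cytokines were followed next. *Il12rb2*, the IL-12 receptor chain that TH1 cells gain, had a rho of 0.63 with *Ifng* and 0.59 in the upper 12 libraries. It was at 19.2, 15.2 and 0.363 TPM in TH1 16h control, against 0.692, 228 and 519 TPM in TH1 16h cGAMP. The log2 difference of cGAMP over control in *Il12rb2* changed sign between the labels. For TH1 it was 2.94 at 16h and -1.91 at 48h, and for TH9 -2.59 and 2.86 (limma, none called). Since the labels mix libraries that differ in subset markers, these values do not show an effect of cGAMP on *Il12rb2*. *Il12rb2* was not bound to *Ifng*, however, since TH9 16h control replicate 2 held 48.7 TPM of it with 1.11 TPM of *Ifng*. *Il12rb1*, the shared chain (rho 0.61), and the IL-18 receptor chains *Il18r1* (0.59) and *Il18rap* (0.60) stood close to it. Of the 11 genes of IL-12 and IL-18 reception, 10 were positive and 6 at 0.5 or more, with a median of 0.58 (9 positive and a median of 0.51 under upper-quartile scaling). The 10 of 11 is close to the 83.9% of all other genes that were positive, and 3.56% of all other genes were at 0.5 or more. Within the upper and lower 12 libraries the median was 0.34 in both, above all other genes in the first and below them in the second.

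Among 13 factors known to activate *Ifng*, 3 were at 0.5 or more: *Tbx21*, *Irf1* (0.79) and *Eomes*, a T-box relative of T-bet (0.75). The median of the list was 0.15, below that of all genes, and turned to -0.12 under upper-quartile scaling, and *Hlx*, a partner of T-bet, was at 0.45. The list's median was 0.26 within the upper 12 libraries and 0.41 within the lower 12. *Irf1* is itself an interferon gamma target and ran from 8.12 to 209 TPM. The 9 tested factors known to restrain *Ifng* had a median of 0.08, which turned to -0.21 under that scaling and was 0.01 within the upper 12 libraries and 0.42 within the lower 12. *Gata3*, the TH2 master factor, was the most opposed (rho -0.72), at 3.7, 2.81 and 22.5 TPM in TH1 16h control, the reverse order of low and high to *Ifng*. *Foxp3*, the factor of regulatory T cells, was at -0.55 and *Runx1* at -0.40, while *Zeb2*, a zinc-finger repressor, went with *Ifng* (0.67).

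The receptor for the cytokine and its signal gave a mixed picture. *Ifngr1*, the ligand-binding chain, was in every library (2.74 to 67.9 TPM, rho 0.36, or 0.10 under upper-quartile scaling), whereas *Ifngr2*, the second chain, was lower where *Ifng* was higher (1.98 to 45.0 TPM, rho -0.58, or -0.88). *Ptpn2*, a phosphatase that acts on JAK1, was at 0.42 and *Socs3*, a signalling inhibitor, at 0.36. The kinases *Jak1* (0.26) and *Jak2* (-0.02) were at -0.32 and -0.54 under upper-quartile scaling, where the median of the 10 genes of this list went from 0.27 to 0.00022. Within the upper 12 libraries it was 0.32 and within the lower 12 it was 0.37.

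Genes induced by interferon gamma had the highest median rho of the lists over the 24 libraries. All 20 tested of 22 had a positive rho, with a median of 0.72 and 15 at 0.5 or more, and under upper-quartile scaling 19 were positive with a median of 0.66, against 83.9% and 48% of all other genes positive and 3.56% at 0.5 or more. Within the upper 12 libraries the median was 0.41, above the 0.22 of all other genes, and within the lower 12 it was 0.35, below their 0.42. *Iigp1*, an immunity-related GTPase (rho 0.84), was at 122, 98.4 and 0.749 TPM in TH1 16h control, against 0.348, 5.96 and 104 TPM in TH9 16h control, where *Ifng* was at 0.709, 1.11 and 40.9. *Gbp2* was at 567, 235 and 26.6 TPM in TH1 16h control. *Cxcl9*, a chemokine better known from myeloid cells, stayed at 1.78 TPM or less (rho 0.32).

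Type I interferon targets are shared in part with those of interferon gamma, and cGAMP induces type I interferon through STING. All 20 of this list had a positive rho under either scaling, with a lower median of 0.45 (0.43 with the upper quartile) and 3 at 0.5 or more, where 83.9% and 48% of all other genes were positive under the 2 scalings. The 3 were *Trim30a* (0.55), *Oas3* (0.51) and *Xaf1* (0.51), with *Ifit1* at 0.50. Within the upper 12 libraries the median was 0.73, above the 0.41 of the interferon gamma list and the 0.22 of all genes there. Within the lower 12 it was 0.13, against 0.42 for all genes. In TH9 16h cGAMP replicate 3, *Xaf1* was at 72.7 TPM with 0.507 TPM of *Ifng*. Of 19 type I and III interferon genes, 2 passed the filter on low values, and *Ifnb1* was listed at 0 in 19 libraries and at 0.929 TPM at most.

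Other TH1 effector genes all had a positive rho (17 tested of 18, median 0.53, 10 at 0.5 or more), and the median was 0.40 under upper-quartile scaling, all 17 still positive. Of all other genes 83.9% and 48% were positive, and 3.56% were at 0.5 or more. The median was 0.52 within the upper 12 libraries, above all other genes, and 0.42 within the lower 12, equal to theirs. The effector genes named by their likeness were *Cxcr3*, a chemokine receptor (0.75, at 3.24 TPM or less), *Prf1*, the gene of perforin (0.72), and the chemokine *Ccl3* (0.70). *Ccl3* was at 72.9, 85.5 and 3.51 TPM in TH1 16h control, against 2.91, 1.83 and 61.6 TPM in TH1 16h cGAMP. *Ccl3* thus parted from *Ifng* in the middle library, where *Ifng* was at 34.5 TPM. The cytokine genes *Tnf* (0.37) and *Il2* (0.11) were among the less alike.

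The TH9 and TH2 effector list ran opposite over all 24 libraries, with 3 of 14 tested genes positive and a median of -0.24 (1 of 14 and -0.55 under upper-quartile scaling), where 83.9% of all other genes were positive (48%). After *Il9*, the chemokine receptors *Ccr8* (rho -0.70) and *Ccr4* (-0.61) were the most opposed, and *Il3*, a cytokine of many helper cells, was positive (0.52). *Ccr8* was at 7.91, 3.18 and 78.9 TPM in TH1 16h control, against 81.6, 144 and 8.46 TPM in TH9 16h control. Within each set of 12 libraries the sign turned: the median rho of the list was 0.16 in the upper 12 and 0.51 in the lower 12, against 0.22 and 0.42 for all other genes.

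Of 16 activation genes, 4 (25%) had a rho of 0.5 or more, against 3.56% of all other genes. The median of this list was 0.18, below the 0.21 of all other genes, or -0.09 under upper-quartile scaling. It was 0.19 within the upper 12 libraries and 0.45 within the lower 12. *Nr4a2*, a nuclear receptor of T-cell receptor signals (0.66), *Lag3*, an inhibitory receptor (0.59), *Icos*, a costimulatory receptor (0.57), and *Cd69*, an early activation marker (0.52), were the 4 highest. The sum of 4 NK-cell markers went with *Ifng* (rho 0.78, 0.192 to 15.4 TPM). That sum came mostly from *Eomes* and *Klrd1*, which T cells express too: the defining NK receptors *Ncr1* and *Klrb1c* were listed at 0 in 15 and 20 libraries and at 0.422 and 0.476 TPM at most.

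**Figure D5:**
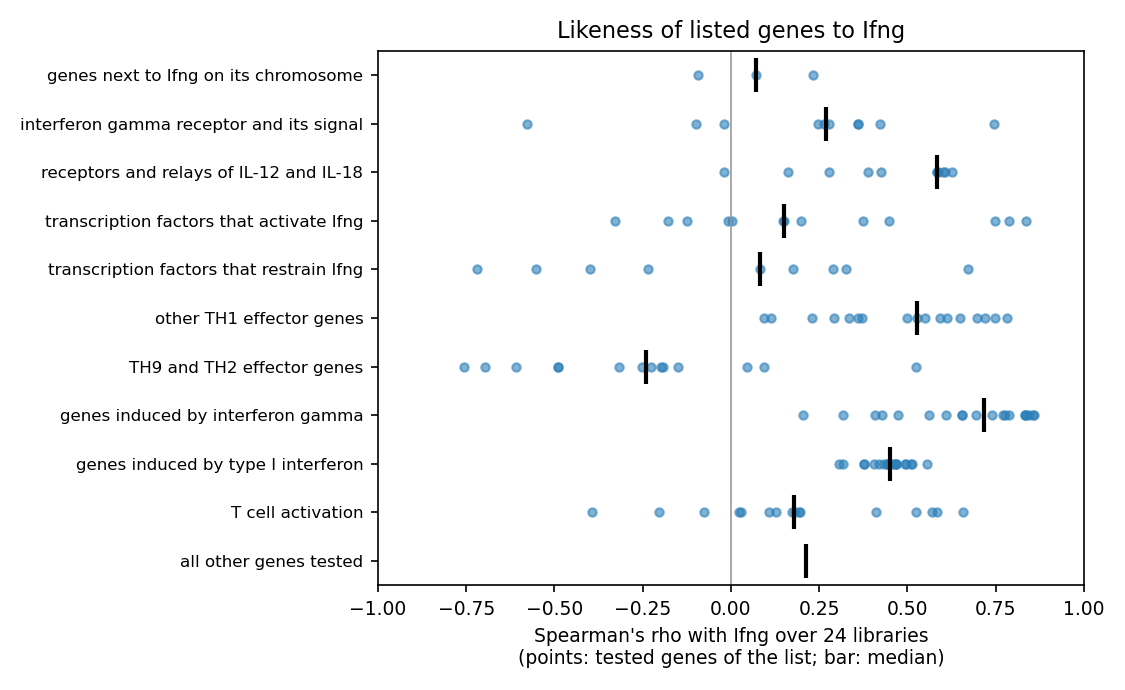
Spearman's rho with *Ifng* over the 24 libraries for the tested genes of 10 lists (points) with each list's median (bar), and the median of all other genes tested in the last row. Genes induced by interferon gamma have the highest median (0.72) and TH9 and TH2 effector genes the lowest (-0.24), against 0.21 for all other genes. Under upper-quartile scaling these values were 0.66, -0.55 and -0.01.

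The 3 tested neighbours of *Ifng* on chromosome 10 had a median rho of 0.07 over the 24 libraries, 0.54 within the upper 12 and 0.17 within the lower 12. *Il22*, 231 kb upstream and also a cytokine gene, had a rho of 0.23. It was at 24.5 TPM in TH1 16h cGAMP replicate 3, the library with the most *Ifng*, and at 16.9 TPM in TH9 16h control replicate 2, where *Ifng* was at 1.11 TPM. *Iltifb*, a near copy of *Il22* at 146 kb with which reads could be shared, was at 3.97 TPM or less (rho -0.09), and *Mdm1*, a microtubule-binding protein gene at 272 kb, had a rho of 0.07, which turned to -0.29 under upper-quartile scaling. The antisense lincRNA *Ifngas1*, 56.1 kb downstream, and *Gm49751*, which overlaps *Ifng*, were not among the 35492 symbols under these names.

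Between the labels, the related genes fared as *Ifng* did. None of the 143 tested genes of the lists was called between cGAMP and control or between TH1 and TH9, on average or in any stratum, by limma at an adjusted p under 0.05. The same test called at most 3 of 15720 genes in any of these comparisons. Since the labels are in doubt, this does not show that the listed genes were unchanged by cGAMP or alike in the subsets. The authors reported marked increases with cGAMP for some of them, such as *Isg15* and *Irf7*. Between the times the lists' calls were all lower at 48h, in a comparison where the median of all genes was lower too. The receptor and signal list of interferon gamma, for instance, had 7 of 10 genes lower, near the 64.5% of all genes called lower on average, and a median of -0.98 against -0.81 for all genes.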

How the data were processed

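RNA of 24 libraries of mouse CD4 T cells, 3 for each of 8 deposited labels, was analysed. The authors trimmed the reads with Trimmomatic, quantified transcripts on mm10 with kallisto and used DESeq2 for their own comparisons, and the sources used here do not give their versions. Deposited were TPM, a value for each symbol and library that adds up to the same total in all libraries. TPM keep no counts, so depth and counting error are unknown. Separate deposited labels are taken as replicates.

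The values were tested with limma 3.58.1 (R 4.3.3, with a trend) on log2(TPM + 1) in 1 fit of 8 label means over the 15720 genes that reached 1 TPM in 3 or more libraries, with Benjamini-Hochberg adjustment and a threshold of 0.05. The fit was run on simulated data with correct labels, where recovery of changed genes was required only at a spread cut below that of these data. It does not cover mixed labels. Correlations are Spearman's. *Ifng* and the 17 gene lists were chosen with earlier results of these data known. Named were the members of the lists that are receptor chains or neighbours of *Ifng*, otherwise the 4 members with the highest absolute correlation with it, and the 10 most and 5 least like genes, with predicted genes passed over. *Tnf*, *Il2*, *Jak1*, *Jak2*, *Cxcl9*, *Ifnb1*, *Iigp1* and library-composition genes were added after their values were seen. Some genes the rule names are not reported here. Replicate numbers were not taken to pair libraries. Of 12 same-numbered pairs, 2 deviated together from their label means (r over 0.1). Because the labels mix libraries that differ in subset markers, this check cannot show whether the libraries were paired. Alternatives were other pseudocounts, filters and scalings, a replicate block, fits restricted to the libraries of a comparison, and leaving out each library.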

Additional observations from a re-analysis of the deposited data

How the results depend on the processing

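In no comparison was *Ifng* called, in the fit reported or under any alternative, where its lowest adjusted p was 0.208. With a pseudocount of 0.1 in place of 1, the 48h against 16h difference in TH1 control turned from 0.64 to -0.048 and the cGAMP effect in TH1 less that in TH9 from -0.67 to 0.0083. With 10, TH1 against TH9 at 48h cGAMP turned from 0.64 to -0.28 and 48h against 16h in TH9 cGAMP from -0.25 to 0.15. Upper-quartile scaling turned the latter to 0.19 and the mean 48h against 16h difference from -0.58 to 0.10 (exact permutation p = 0.932). The other 127 values kept their direction. The cause was not tested.

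Leaving out each library in turn reversed 27 of 168 values, in 11 of 16 comparisons. In TH1, the cGAMP effect lay between -0.70 and 3.29 at 16h and between -3.30 and 0.70 at 48h, in TH9 between -1.52 and 1.85 at 16h and between -1.31 and 2.32 at 48h, and on average between -0.22 and 0.89, and the TH1 less TH9 effect went from -1.74 to 0.52. TH1 against TH9 ran from 0.35 to 2.77 at 16h control, 0.19 to 4.18 at 16h cGAMP, 1.00 to 4.99 at 48h control, -0.62 to 3.01 at 48h cGAMP and 1.23 to 2.31 on average. 48h against 16h ran from -1.20 to 2.79 in TH1 control, -3.80 to 0.19 in TH1 cGAMP, -1.98 to 0.54 in TH9 control, -2.62 to 1.63 in TH9 cGAMP and -1.17 to -0.04 on average.

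The replicate block left each *Ifng* difference as it was (0.38 for cGAMP and 1.71 for TH1 against TH9 on average) with an SE of 1.15 in place of 1.11, and moved the genes called between times from 1583 to 876 in TH1 control and from 1759 to 912 in TH9 cGAMP. Without a filter on low values, 37 genes were called for cGAMP at TH1 16h in place of 1 and 49 between TH1 and TH9 at 16h cGAMP in place of 3. Upper-quartile scaling left 1 gene called between times in TH1 control, 16 in TH9 control and 344 in TH9 cGAMP. Of the 306 correlations recomputed under upper-quartile scaling or without the 20 most abundant symbols, 119 moved by more than their jackknife error, among them *Cd79b* (from -0.72 to -0.88 under the former).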
